A study of Homo sapiens with 22 samples.

Results

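Pairs of poly(A) sites that lay over 300 and at most 2000 nt apart on one strand, with no further site joined to either, were examined in leukaemia cells depleted of FIP1L1. Sites outside the mitochondrial chromosome with a mean of at least 5 raw reads over the 10 3'READS libraries were kept, which left 34780 of 1618880 sites. Consecutive sites of one strand at most 2000 nt apart were joined into runs, and the members are the runs with exactly 2 sites spaced by more than 300 nt. This gave 2035 of 22145 runs (9.19%), or 4070 sites. Mean reads over all libraries and spacing chose the members, so both are given as descriptions. The readout was the ratio of distal to proximal reads, with the proximal site at the lower position on the plus strand and at the higher position on the minus strand.

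Kasumi-1 is a human acute myeloid leukaemia line that carries a RUNX1-RUNX1T1 fusion. All cells, controls included, were grown in RPMI with 10% FBS, received a lentivirus and were selected with puromycin. The virus carried control shRNA, shRNA 1 against FIP1L1 or shRNA 2 against FIP1L1, and 3'READS, which counts reads at the 3' ends of polyadenylated RNA, covered 3, 4 and 3 libraries of these groups. Replicates are labelled as biological, with no mention of separate transductions, so a p-value covers only the variation among these samples of 1 cell line.

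FIP1L1 belongs to CPSF, the cleavage and polyadenylation specificity factor, which recognises the poly(A) signal and recruits the poly(A) polymerase. Many genes end at more than one poly(A) site, and the use of a proximal or a distal site sets how much sequence the 3' end of the mRNA carries. Sites that are well separated can lie in one terminal exon, in an intron and the last exon, or at the ends of neighbouring genes. Positions are hg19, and an annotation of that build was not used here, so members are named by position and the 2 sites of a run may belong to different genes.

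FIP1L1 was checked in RNA-seq, which used 12 other libraries. It stood at 40.01, 37.26, 40.27 and 37.38 CPM (counts scaled to the same total per library) in the 4 control libraries, at 14.79, 15.65, 16.41 and 19.12 with shRNA 1, and at 19.89, 20.46, 19.05 and 18.29 with shRNA 2. The log2 change was -1.23 with shRNA 1 and -0.996 with shRNA 2 (two-sided exact permutation test, p = 0.0286 for each, n = 4 against 4, which is the smallest p this design allows). Control and knockdown libraries did not overlap. Depth of the 3'READS libraries ran from 5666102 to 10846661 reads. Control replicate 3 and shRNA 1 replicates 1 and 2 stood apart from their groups: over 3937 isolated sites outside the members with a mean of at least 50 reads, they correlated with libraries of their own group at 0.863 to 0.92, against 0.979 to 0.988 among the other libraries of a group. They also had 0 reads at 5.06% to 12.5% of member sites, against 0.541% to 2.04% in the other 7 libraries. The share of reads on the mitochondrial chromosome was 9.48% to 11.7% in controls, 6.56% to 8.87% with shRNA 1 and 13.9% to 14.9% with shRNA 2, and its part in the results was not tested. Results are therefore given for all 10 libraries and for the 7 without the 3 that stood apart, a choice made after seeing the data.

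The members' spacing had a median of 891 nt (quartiles 544.5 and 1360, highest 1999). Both sites together had a median of 67.6 reads per library (quartiles 27.35 and 204.2), with a range from 10.1 to 30984.1. The distal site held a median of 53.2% of a member's reads (quartiles 26.77% and 80.94%), so neither site dominated across members. In 507 members the proximal site had more reads in all 10 libraries, in 635 the distal site did, and in 893 this differed between libraries. Of the members, 1063 lay on the plus strand, and 972 on the minus strand, with 2 of them on haplotype or unplaced contigs.

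The read minimum was met by the mean over all libraries and not within each group. Both sites had a mean of at least 5 reads in all 3 groups in 1150 members, in exactly 2 groups in 583, in exactly 1 group in 295 and in no group in 7. In 12 members 1 site had 0 reads in every library of a group. A site that passed through 1 group had to differ between groups, so counts over the members are descriptions. In 581 members a site met the minimum only through 1 group, with a mean under 5 reads over the libraries of the other groups. Where such a member is named, its values are a description and no p is given. The weaker site had a mean of 5 to under 6 reads in 358 members. Just inside the lower spacing bound lay chr3:129274058-129274359 (mean log2 ratio 5.57) and chr7:102096967-102097269 (302 nt, 2.30), and just outside chrX:154467791-154468091 and chr15:43015762-43016062 (both 300 nt, 3.47 and 3.01). At the upper bound, chr12:79981573-79983572 (1999 nt, -1.38) and chr3:48507046-48509043 (1997 nt, -2.71) lay inside, and chr5:102884557-102886558 (2001 nt, -1.44) and chr7:86821004-86823009 (2005 nt, 2.17) outside.

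The level of the ratio was summarised by the median over the 2035 members of log2 of distal over proximal reads, with 0.5 added to each count. This median was 0.24, 0.21 and 0.12 in control replicates 1 to 3, 0.25, 0.39, 0.22 and 0.32 in shRNA 1 replicates 1 to 4, and 0.21, 0.28 and 0.23 in shRNA 2 replicates 1 to 3. The groups overlapped, with means of 0.19 ± 0.06 (SD, n = 3), 0.29 ± 0.08 (SD, n = 4) and 0.24 ± 0.04 (SD, n = 3). In the 1630 2-site runs at most 300 nt apart, the same median was 0.51 ± 0.03 in controls, 0.39 ± 0.07 with shRNA 1 and 0.24 ± 0.04 with shRNA 2, all lower with knockdown, while in the members the knockdown means lay above the control mean. Runs of 3 or more sites, read at their first and last site, had the order of the members, with 0.14 ± 0.06 in controls, 0.28 ± 0.09 with shRNA 1 and 0.22 ± 0.01 with shRNA 2. The median difference between shRNA 1 and control over members was 0.24 among the libraries that stood apart (2 against 1) and 0.08 among the others (2 against 2).

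**Figure D1:**
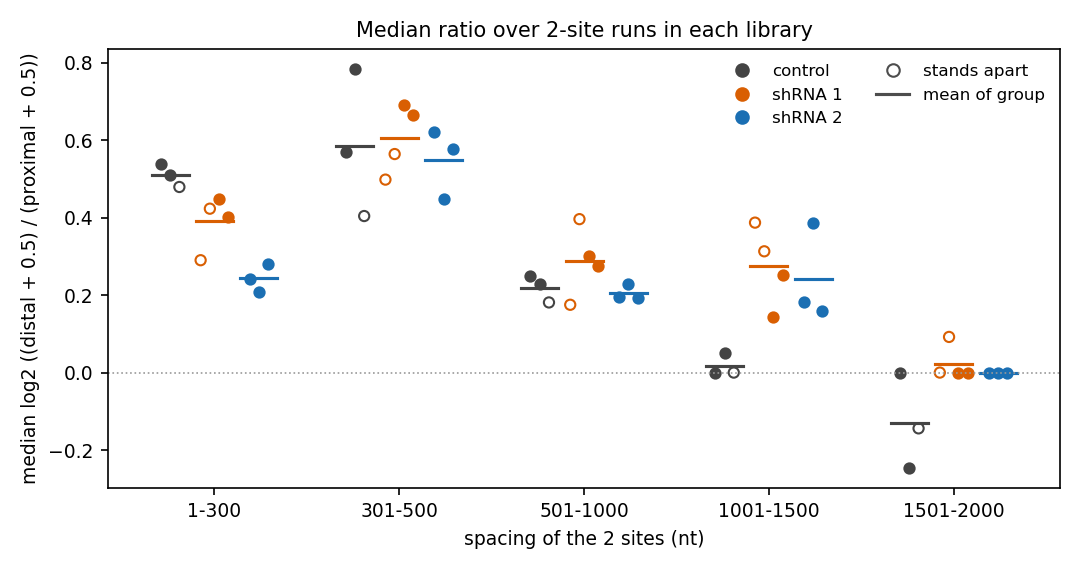
Median log2 ratio of distal to proximal reads (0.5 added to each count) over 2-site runs, by spacing class in nt, with 1 point per library, a line at the mean of each group and open points for the 3 libraries that stood apart. The class up to 300 nt holds no members; over 1000 and up to 1500 nt all 4 shRNA 1 and all 3 shRNA 2 libraries lay above the 3 control libraries, and between 300 and 1000 nt the groups overlapped.

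By spacing, the per-library medians of the groups came apart most at over 1000 and up to 1500 nt (509 members). There the per-library median was 0.00, 0.05 and 0.00 in controls, 0.39, 0.31, 0.14 and 0.25 with shRNA 1, and 0.18, 0.39 and 0.16 with shRNA 2. Every knockdown library lay above every control library. At 500 nt or less (420 members) the group means were 0.59, 0.61 and 0.55 for control, shRNA 1 and shRNA 2, with overlapping libraries. At over 500 and up to 1000 nt (735 members) they were 0.22, 0.29 and 0.21, and at over 1500 nt (371 members) -0.13, 0.02 and 0.00. A median of 0 means equal counts at both sites, and all 3 shRNA 2 libraries had it at over 1500 nt. The median fitted change of the ratio was larger at over 1500 nt, at 0.301 with shRNA 1 and 0.188 with shRNA 2 in 10 libraries. At over 1000 and up to 1500 nt it was 0.173 and 0.14, so the class with the widest gap depended on the measure. No p is given for these medians, since the members and classes were chosen with results of these data known.

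Against the control, shRNA 1 changed the ratio of 14 members (edgeR quasi-likelihood test on all 10 libraries, Benjamini-Hochberg adjusted p under 0.05 over 6556 runs with 2 or more sites). Of these, 8 moved toward the distal and 6 toward the proximal site. Over all runs tested 0.732% were called, 0.366% in each direction, so the members' share of 0.688% was close to the background. At an unadjusted p under 0.05 there were 226 of the 2035 members, against 724 of all 6556 runs. The median log2 change of the ratio was 0.13 over members, 0.175 over runs of 3 or more sites and 0.09 over all runs. Libraries came from bulk RNA, in which a shift in some cells and a smaller shift in all cells cannot be told apart, nor can fewer cells and less RNA per cell. In 6 of the 14, 2 toward the distal and 4 toward the proximal site, a site met the read minimum only through 1 group. This held for 581 of all 2035 members. In each of the 14 members every shRNA 1 library lay beyond every control library, and the direction was the same among the 3 libraries that stood apart. The test that chose the 14 used all these libraries, so neither count is separate evidence. All 14 were also called in the 7 libraries, which are part of the 10, and all are shown in the plot of runs whose ratio changed with shRNA 1. Leaving out 1 library at a time moved the count to between 1 (without control replicate 2) and 16 (without shRNA 1 replicate 1), with 2 without control replicate 1, 8 without control replicate 3, 9 without shRNA 1 replicate 2 or 3, and 7 without shRNA 1 replicate 4. The spread is estimated over all 10 libraries, and the count was 7, 8 and 7 without shRNA 2 replicates 1, 2 and 3.

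**Figure D2:**
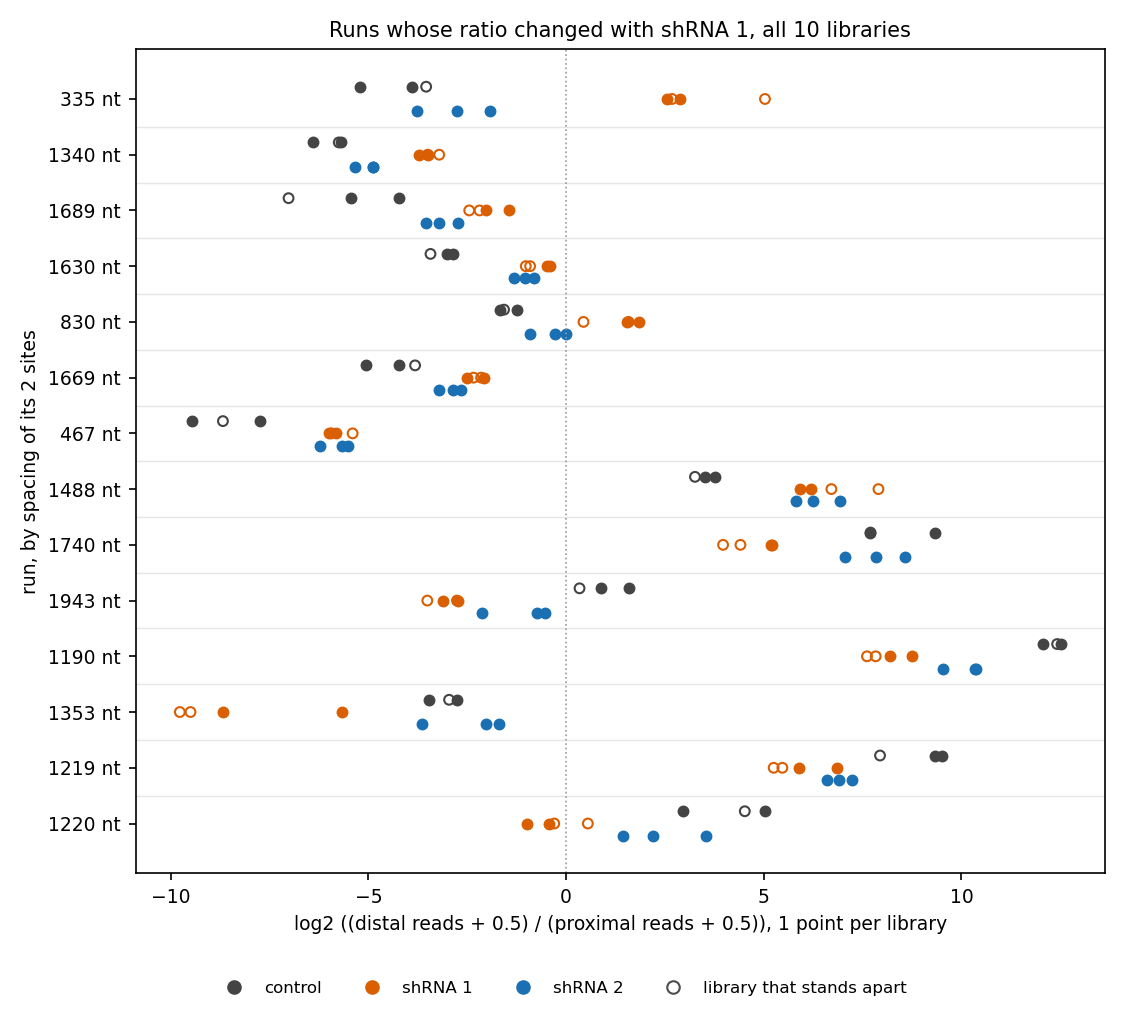
Log2 ratio of distal to proximal reads (0.5 added to each count) in the 14 members called with shRNA 1, 1 point per library, with runs named by spacing in nt. The 8 upper runs moved toward the distal and the 6 lower toward the proximal site, and control and shRNA 1 points did not overlap in any run. In 10 of 14 runs all shRNA 2 libraries lay beyond all control libraries on the side of shRNA 1. The same control libraries chose the 14 runs, so this count is not separate evidence, and its share over all runs was not counted.

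The member with the highest change was chr1:108113449-108113784 (minus strand, 335 nt apart), where a distal site that was nearly silent in controls carried most reads with shRNA 1. Its distal reads were 0, 1 and 1 in control replicates 1 to 3, 73, 147, 128 and 120 in shRNA 1 replicates 1 to 4, and 1, 3 and 2 in shRNA 2 replicates 1 to 3. Its proximal reads were 18, 22 and 17, 11, 4, 17 and 20, and 20, 23 and 9 in the same order. The distal site was thus high in the 4 shRNA 1 libraries alone, while the proximal counts overlapped between all groups. The distal site met the read minimum only through shRNA 1, so it had to be higher there. As a description, the fitted log2 change of the ratio was 7.81 ± 0.93 (SE) with shRNA 1 and 1.60 ± 1.21 with shRNA 2. With 2 distal reads over the control libraries, the pooled odds ratio for shRNA 1 was 252, with an exact 95% interval from 63.5 to 2190 that covers counting error only.

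Other members that moved toward the distal site with shRNA 1 had shRNA 2 libraries beyond the controls on the same side, though both comparisons share the control libraries. At chr19:6368913-6370253 (plus strand, 1340 nt), the log2 ratio was -5.70, -6.40 and -5.75 in control replicates 1 to 3, -3.21, -3.50, -3.49 and -3.72 in shRNA 1 replicates 1 to 4, and -4.89, -4.89 and -5.34 in shRNA 2 replicates 1 to 3. All libraries favoured the proximal site, the controls most and the shRNA 1 libraries least, with shRNA 2 between them and no overlap. The ratio rose by 2.48 ± 0.43 (SE) with shRNA 1 (edgeR adjusted p = 0.0123), with the proximal site at -0.74 (adjusted p = 0.0196) and the distal site at 1.72 (adjusted p = 0.00108) on the log2 scale. At chr16:71962908-71964538 (plus strand, 1630 nt), the log2 ratio was -3.01, -2.85 and -3.43 in control replicates 1 to 3, -0.91, -1.02, -0.41 and -0.49 in shRNA 1 replicates 1 to 4, and -0.82, -1.03 and -1.31 in shRNA 2 replicates 1 to 3. Both knockdown groups lay above all controls, and the distal reads went from 34, 55 and 34 in controls to 124, 143, 208 and 187 with shRNA 1 and 129, 189 and 140 with shRNA 2. The log2 change of the ratio was 2.40 ± 0.44 with shRNA 1 (edgeR adjusted p = 0.0144) and 2.05 ± 0.47 with shRNA 2, which missed the threshold in 10 libraries (adjusted p = 0.126) and passed it in 7 (1.88 ± 0.31, adjusted p = 0.000309).

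A similar order was seen at chr9:135118220-135119909 (plus strand, 1689 nt), where the log2 ratio was -4.23, -5.44 and -7.02 in control replicates 1 to 3, -2.45, -2.19, -1.44 and -2.03 in shRNA 1 replicates 1 to 4, and -3.55, -2.74 and -3.22 in shRNA 2 replicates 1 to 3. Control replicate 3, which stood apart, was the lowest library, and the shRNA 2 libraries lay between the groups. The ratio rose by 3.34 ± 0.60 with shRNA 1 (edgeR adjusted p = 0.0135), with the distal site at 2.56 (adjusted p = 0.00215). In the other 4 members called toward the distal site, changes with shRNA 1 were 2.92 at chr9:131067439-131068269, 2.11 at chr16:1375348-1377017, 2.76 at chr14:58738720-58739187 and 3.17 at chr20:61518569-61520057 (edgeR adjusted p from 0.0372 to 0.0394 for the first 3). The proximal site of the last met the read minimum only through the controls. The first 3 had a lower proximal site when each site was tested alone, by -3.22, -1.68 and -0.89 (log2 changes, each with an edgeR adjusted p of at most 0.00882), and no distal site of these passed the test. The proximal reads at chr9:131067439-131068269 were 68, 57 and 90 in controls, 5, 8, 8 and 9 with shRNA 1 and 22, 22 and 38 with shRNA 2, an order without overlap between the groups.

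Toward the proximal site, chr12:57106212-57107402 (minus strand, 1190 nt) had 0 proximal reads in all 3 control libraries, 13, 14, 12 and 7 in the shRNA 1 libraries and 2, 2 and 2 in the shRNA 2 libraries. Its distal site had 2125, 2913 and 2739 reads in controls, 3081, 2829, 3627 and 3237 with shRNA 1 and 1849, 3287 and 3237 with shRNA 2, so the proximal site stayed a small fraction throughout. The proximal site had a mean of 5.2 reads over all libraries and met the minimum only through shRNA 1. Its higher count there was therefore fixed by how members were chosen, and the pooled ratio, at least 9.34-fold lower with shRNA 1 against a floor of 3 reads over the control group, is a description.

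At chr12:38555267-38557210 (minus strand, 1943 nt), proximal reads were 1, 3 and 7 in controls, 200, 278, 90 and 211 with shRNA 1 and 6, 7 and 6 with shRNA 2, and distal reads were 4, 6 and 9, 29, 24, 13 and 24, and 4, 4 and 1. Both sites were highest in the shRNA 1 libraries, the proximal site far more so. The distal site met the read minimum only through shRNA 1, and the proximal site had a mean under 5 reads in controls. As a description, the log2 change of the ratio was -3.92 ± 0.70 with shRNA 1. The major site went from distal in every control library to proximal in every shRNA 1 library.

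At chr19:51300962-51302702 (minus strand, 1740 nt), the log2 ratio was 9.34, 7.68 and 7.70 in control replicates 1 to 3, 3.97, 4.41, 5.17 and 5.22 in shRNA 1 replicates 1 to 4, and 7.05, 8.58 and 7.83 in shRNA 2 replicates 1 to 3. The 4 shRNA 1 libraries were all below the other 6, and control and shRNA 2 libraries overlapped. The ratio changed by -3.47 ± 0.60 with shRNA 1 (edgeR adjusted p = 0.0123) and by -0.38 ± 0.67 with shRNA 2 (adjusted p = 0.92), and shRNA 2 lay above shRNA 1 by 3.09 ± 0.57 (adjusted p = 0.0221). At chr6:108362678-108364031 (minus strand, 1353 nt), distal reads were 5, 10 and 15 in controls, 0, 0, 5 and 0 with shRNA 1 and 19, 15 and 36 with shRNA 2, while proximal reads were 60, 71 and 120, 361, 435, 280 and 206, and 79, 194 and 118. The proximal site was highest in the 4 shRNA 1 libraries, 3 of which had 0 distal reads. The ratio changed by -4.87 ± 0.98 (edgeR adjusted p = 0.0312). The remaining 2 were chrX:48687254-48688473, with a change of -3.05 ± 0.67 and a lower distal site, and chr1:27651792-27653012, with 24.1 reads per library and 2 proximal reads over the controls (pooled odds ratio 32.2, exact 95% interval 7.91 to 284). In both the proximal site met the read minimum only through a knockdown group. This was shRNA 1 in the second, while in the first leaving out either shRNA took its mean under 5 reads. A higher proximal count with knockdown was thus favoured by how members were chosen, so the values of both are a description. The interval covers counting error only.

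Against the same control libraries, shRNA 2 gave 0 called members in 10 libraries by the edgeR quasi-likelihood test, as it gave 0 among all 6556 runs (0.0%). At an unadjusted p under 0.05 there were 171 of the 2035 members, against 623 of all 6556 runs. DESeq2 on the same counts called 10 members, 8 of them toward the distal site, and its calls over all runs were not counted. The median log2 change was 0.07 over members, 0.094 over runs of 3 or more sites and 0.003 over all runs. Leaving out shRNA 1 replicate 1 or 2, which enter the shared estimate of the spread, gave 5 and 3 called members.

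In the 7 libraries without those that stood apart, more members passed the same test. With shRNA 1, 94 were called, 54 toward the distal and 40 toward the proximal site, against 4.12% of all runs (2.14% and 1.98%). The members' share was 4.62%. With shRNA 2, 131 were called, 83 toward the distal and 48 toward the proximal site, or 4.08% and 2.36% of members, against 3.45% and 4.0% of all runs (7.44% in all). Of the calls, 24 of 94 with shRNA 1 and 38 of 131 with shRNA 2 were in members with a site that met the read minimum only through 1 group. Of all 2035 members, 581 had such a site. In the 2-site runs at most 300 nt apart 34 moved toward the distal and 115 toward the proximal site of 1630 with shRNA 2, and in runs of 3 or more sites 109 and 99 of 2891. The median log2 changes over members were 0.08 with shRNA 1 and 0.01 with shRNA 2, so the calls toward the distal site stood beside a median close to 0. DESeq2 on the 7 libraries called 22 members with shRNA 1 and 37 with shRNA 2, and its calls over all runs were not counted. Both comparisons share 2 control libraries here, so their values for a member are given side by side.

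Members that passed with each shRNA and moved the same way, with all knockdown libraries beyond the controls among the 7 and a mean of at least 50 reads, numbered 21 toward the distal and 4 toward the proximal site. These were 1.03% and 0.197% of members, against 0.702% and 0.549% of all runs by the same rule. The shares were 0.692% and 0.45% in runs of 3 or more sites and 0.307% and 1.17% in 2-site runs at most 300 nt apart. Both shRNAs were set against the same 2 control libraries, so a call with each is not found independently, and the split by direction was not tested. With all 10 libraries there were none, since shRNA 2 gave no calls. At chr22:38363806-38365318 (plus strand, 1512 nt), the log2 ratio was -4.68, -5.01 and -4.52 in control replicates 1 to 3, -2.19, -3.34, -2.45 and -3.29 in shRNA 1 replicates 1 to 4, and -2.15, -2.10 and -2.37 in shRNA 2 replicates 1 to 3. All 10 libraries kept the order, including those that stood apart. Its change in 7 libraries was 2.03 ± 0.38 with shRNA 1 (edgeR adjusted p = 0.00111) and 2.66 ± 0.33 with shRNA 2 (adjusted p = 4.39e-06). The distal site rose with both, by 1.03 and 2.15, while the proximal site was lower with both, at -1.02 and -0.51 (log2 changes, each with an edgeR adjusted p of at most 0.0111).

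The same direction was found at chr20:61518569-61520057 (minus strand, 1488 nt), where the distal site is the major one. Its proximal reads were 14, 19 and 14 in controls, 0, 0, 3 and 3 with shRNA 1 and 4, 4 and 2 with shRNA 2, all lower with knockdown, while distal reads ran from 52 to 343 with overlapping groups. As a description, since its proximal site met the read minimum only through the controls, the log2 change of its ratio was 2.54 ± 0.63 with shRNA 1 and 2.75 ± 0.55 with shRNA 2 in 7 libraries. At chr14:58738720-58739187 (plus strand, 467 nt), by contrast, the distal site was minor, with 1, 6 and 2 reads in controls, 12, 6, 12 and 11 with shRNA 1 and 13, 14 and 18 with shRNA 2, beside 395 to 1377 proximal reads. All knockdown libraries had a higher ratio than all controls in the 10 libraries, and the change in 7 was 2.44 ± 0.63 and 2.55 ± 0.56 (edgeR adjusted p = 0.0216 and 0.00438).

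At chr7:36892513-36893967 (minus strand, 1454 nt), the log2 ratio was -5.33, -5.47 and -7.25 in control replicates 1 to 3, -9.26, -3.27, -3.32 and -2.93 in shRNA 1 replicates 1 to 4, and -3.49, -2.78 and -3.03 in shRNA 2 replicates 1 to 3. shRNA 1 replicate 1, which stood apart and had 0 distal reads, lay below all controls, and the other 6 knockdown libraries lay above them. The change in 7 libraries was 2.31 ± 0.44 with shRNA 1 (edgeR adjusted p = 0.00154) and 2.38 ± 0.41 with shRNA 2 (adjusted p = 0.000357); in 10 it was 2.05 (adjusted p = 0.396) and 2.79 (adjusted p = 0.309). At chr16:67918398-67920270 (plus strand, 1872 nt) distal reads were 4, 11 and 2 in controls, 13, 18, 23 and 32 with shRNA 1 and 23, 45 and 32 with shRNA 2, and at chr11:17403200-17405078 (plus strand, 1878 nt) they were 16, 4 and 7, 14, 5, 19 and 21, and 20, 53 and 48. In both runs the proximal site had at least 140 reads in every library, and the distal site was the minor one in all 10. With shRNA 1 and shRNA 2 in turn, log2 changes of the ratio in 7 libraries were 2.38 and 1.99 for the first run. They were 1.98 and 2.87 for the second (all edgeR adjusted p from 0.000293 to 0.0373). In 10 libraries neither passed the test (edgeR adjusted p = 0.0843 and 0.182 for the first, 0.268 and 0.131 for the second). The groups then overlapped at chr11:17403200-17405078, with shRNA 1 replicate 2 at -4.79 and control replicate 1 at -4.67.

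The other 4 named toward the distal site were chr15:100266375-100267614, chr6:86214455-86215524, chr2:43448964-43449552 and chr7:112755966-112756780. The first had 0 distal reads in control replicates 1 and 2 and 5 in control replicate 3, against 7, 2, 21 and 7 with shRNA 1 and 2, 13 and 7 with shRNA 2. Its distal site met the read minimum only through shRNA 1. In 7 libraries its pooled ratio was at least 5.99-fold higher with shRNA 1 and at least 3.06-fold higher with shRNA 2, against a floor of 3 reads over the control group. In 10 libraries, which add control replicate 3 and shRNA 1 replicates 1 and 2, the groups overlapped and the ratio was called with neither shRNA. For the other 3, log2 changes in 7 libraries ran from 2.22 to 2.85 with shRNA 1 and from 1.93 to 2.80 with shRNA 2, and libraries that stood apart overlapped with the other group in chr6:86214455-86215524 and chr2:43448964-43449552.

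Toward the proximal site with both shRNAs, chr17:38783971-38784976 (minus strand, 1005 nt) was covered by 1291 reads per library. Its log2 ratio was -1.79, -1.82 and -1.73 in control replicates 1 to 3, -2.51, -2.82, -2.84 and -3.35 in shRNA 1 replicates 1 to 4, and -2.88, -3.01 and -2.86 in shRNA 2 replicates 1 to 3. Controls were tight and all 7 knockdown libraries lay below them, in all 10 libraries. The change in 7 libraries was -1.29 ± 0.28 with shRNA 1 (edgeR adjusted p = 0.00505) and -1.12 ± 0.25 with shRNA 2 (adjusted p = 0.00536), with the distal site at -1.0 and -1.06 (adjusted p = 5.36e-05 and 4.08e-06). In 10 libraries its change was -1.10 and -1.14, past no threshold (edgeR adjusted p = 0.283 and 0.393). At chrX:48687254-48688473 (plus strand, 1219 nt) the distal reads were 1090, 1616 and 1349 in controls, 376, 324, 518 and 388 with shRNA 1 and 524, 920 and 889 with shRNA 2. Its distal site was lower in every knockdown library than in every control, beside 1 to 9 proximal reads per library. The proximal site would not have met the read minimum without either knockdown group. A higher proximal count with knockdown was thus favoured by how members were chosen, and the pooled odds ratios are a description. With 3 proximal reads over control replicates 1 and 2, they were 9.95 with shRNA 1 and 7.34 with shRNA 2 in the direction of the proximal site. The exact 95% intervals, 2.55 to 56.4 and 2.16 to 38.8 in turn, cover counting error only. The remaining 2 were chr2:174939736-174940048 and chr20:60962966-60963575. At the former, log2 changes were -1.46 and -0.95 in 7 libraries. In 10 they were -1.79 and -0.42 (edgeR adjusted p = 0.251 and 0.906), and control replicate 3 overlapped with the knockdown libraries. At the latter, the proximal site had 0 reads in control replicates 1 and 2 and 7 in replicate 3. The pooled ratio of the last was at least 6.99-fold lower with shRNA 1 and at least 5.07-fold lower with shRNA 2 against a floor of 3 reads over the control group, and in 10 libraries the groups overlapped. That proximal site met the read minimum only through shRNA 1.

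**Figure D3:**
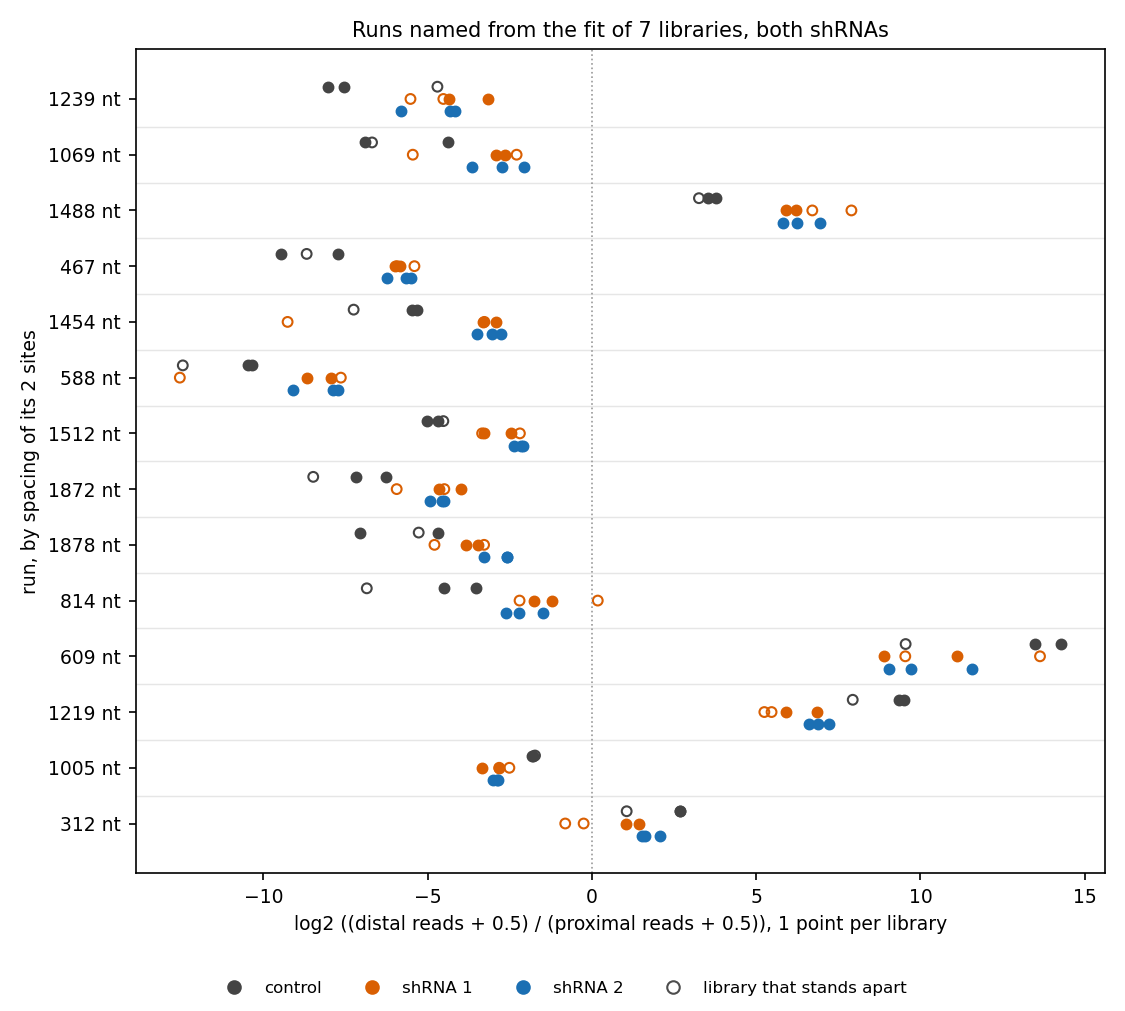
Log2 ratio of distal to proximal reads (0.5 added to each count) in the 14 members named from the 7 libraries for both shRNAs, 1 point per library, with runs named by spacing in nt and open points for the 3 libraries left out. The 10 upper runs moved toward the distal and the 4 lower toward the proximal site; filled knockdown points did not overlap with filled control points, while open points did in some runs.

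The shRNAs were also set against each other, a comparison without control libraries. In 10 libraries 17 members differed, 12 with a higher and 5 with a lower distal to proximal ratio with shRNA 2 (edgeR, adjusted p under 0.05), against 0.93% of all runs (0.595% and 0.336%). The members' share was 0.835%. An unadjusted p under 0.05 was found in 289 of the 2035 members, against 901 of all 6556 runs. In 7 libraries 118 differed, 59 in each direction, against 5.64% of all runs (2.53% higher and 3.11% lower). Of the calls, 6 of the 17 and 26 of the 118 were in members with a site that met the read minimum only through 1 group, where groups had to differ. Among all 2035 members, 581 had such a site. Leaving out 1 library at a time, the count was 0 without shRNA 2 replicate 1 or 2, 2 without shRNA 2 replicate 3, 9 without control replicate 1 or 2, and 13 to 18 otherwise.

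The ratio at chr20:26188865-26189982 (minus strand, 1117 nt) separated shRNA 2 from both other groups. Its log2 ratio was -3.26, -3.06 and -3.41 in control replicates 1 to 3, -3.69, -2.69, -2.0 and -3.27 in shRNA 1 replicates 1 to 4, and 1.87, 1.04 and 0.0 in shRNA 2 replicates 1 to 3. Its proximal reads were 100, 87 and 164 in controls, 200, 197, 145 and 149 with shRNA 1 and 4, 8 and 12 with shRNA 2, while distal reads ran from 10 to 36. Only the proximal site in shRNA 2 libraries was low. The ratio was higher with shRNA 2 than with shRNA 1 by 3.85 ± 0.64 (edgeR adjusted p = 0.0129), and against the control by 4.23 ± 0.69 (adjusted p = 0.069 in 10 and 9.95e-05 in 7 libraries). The proximal site was at -4.27 on the log2 scale with shRNA 2 against control (edgeR adjusted p = 0.00014).

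Other members differed between the shRNAs with the control in between. At chr15:81296344-81298127 (plus strand, 1783 nt) distal reads were 0, 0, 1 and 5 with shRNA 1, 14, 15 and 17 in controls and 26, 46 and 47 with shRNA 2. Control and shRNA 2 libraries did not overlap, nor did control and shRNA 1 libraries. The ratio differed by 3.84 ± 0.76 between the shRNAs (edgeR adjusted p = 0.0273), with -2.14 for shRNA 1 (adjusted p = 0.288) and 1.71 for shRNA 2 (adjusted p = 0.393) against the control. At chr5:148924833-148926389 (minus strand, 1556 nt), where shRNA 2 had the lower ratio, proximal reads were 3, 3, 2 and 0 with shRNA 1, 14, 30 and 14 in controls and 24, 36 and 48 with shRNA 2. The proximal site was lowest in the 4 shRNA 1 libraries, and control and shRNA 2 counts overlapped. The difference in ratio was -4.85 ± 0.75 (edgeR adjusted p = 0.0074), with 3.09 (adjusted p = 0.0769) and -1.76 (adjusted p = 0.409) against the control.

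In 10 libraries the largest differences among the named members were at chr1:108113449-108113784, where shRNA 2 differed from shRNA 1 by -6.22 ± 0.84, and at chr6:108362678-108364031, where it differed by 5.51 ± 0.93 (edgeR adjusted p = 0.0129). In 7 libraries these were -5.76 and 4.13, with -5.74 at chr5:148924833-148926389, so the order differed. The others named by the rule in 10 libraries were chr17:7809639-7811020 (3.88) and chr12:2966852-2967438 (3.44), higher with shRNA 2, and chr2:238006678-238007334 (-3.77) and chr17:7481409-7482324 (-3.05), lower with shRNA 2. The adjusted p of the last 2 was 0.0319 and 0.0462 by edgeR, while at chr1:108113449-108113784, chr17:7809639-7811020 and chr12:2966852-2967438 a site met the read minimum only through 1 shRNA. At chr2:238006678-238007334 and chr17:7481409-7482324 shRNA 1 replicates 1 and 2, which stood apart, held 0 to 7 proximal reads. At the latter the difference was -2.30 in the 7 libraries (adjusted p = 0.00077).

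The same rule in 7 libraries added 5 members, which were not called between the shRNAs in 10. At chr19:40721481-40722589 (plus strand, 1108 nt) distal reads were 13, 8 and 4 in controls, 7, 4, 2 and 4 with shRNA 1 and 34, 44 and 43 with shRNA 2. The 3 shRNA 2 libraries held the most distal reads. The ratio was higher with shRNA 2 than with shRNA 1 by 4.21 ± 0.55 in 7 libraries (edgeR adjusted p = 6.38e-06) and by 2.88 ± 0.70 in 10 (adjusted p = 0.0707). At chr10:13178920-13180287 (plus strand, 1367 nt) proximal reads were 23, 32 and 4 in controls, 38, 28, 48 and 41 with shRNA 1 and 70, 144 and 125 with shRNA 2, again highest with shRNA 2, and the difference in ratio was -2.98 ± 0.49 (edgeR adjusted p = 0.000214 in 7 and 0.126 in 10 libraries). The others were chr6:4061138-4062139 (3.71, edgeR adjusted p = 0.00134), with 0 to 23 proximal reads, and chr5:143537731-143538922 (-3.64) and chr16:2999812-3001208 (-2.92). In the last 2 a site met the read minimum only through shRNA 2 and only through shRNA 1, in turn.

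Each site was also tested alone, among all 34780 sites. With shRNA 1, 104 proximal sites were higher and 156 lower in 10 libraries, and 127 distal sites were higher and 125 lower (edgeR adjusted p under 0.05), against 13.7% of all sites (6.69% higher and 6.99% lower). With shRNA 2, 47 proximal sites were higher and 85 lower, and 63 distal sites were higher and 65 lower, against 6.29% of all sites (2.9% and 3.39%). The members' shares of called sites, 12.8% and 12.4% with shRNA 1 and 6.49% and 6.29% with shRNA 2 for proximal and distal sites, were close to these. Between the shRNAs, 15.8% of proximal and 17.6% of distal sites were called, against 17.9% of all sites (8.43% higher and 9.46% lower). Far more sites than ratios were thus called, with a like share of proximal and distal sites.

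Among members whose ratio was called, single sites were read for which of the pair had moved. In the 8 that moved toward the distal site with shRNA 1 in 10 libraries, 4 had a lower proximal site alone, 3 a higher distal site alone and 1 had both. In the 6 that moved toward the proximal site, 3 had a higher proximal site alone, 1 a lower distal site alone, 1 both, and 1 had both sites higher. In 7 libraries, 26.8% of all sites were called with shRNA 1, 27.6% with shRNA 2 and 32.7% between the shRNAs. There, the 83 members that moved toward the distal site with shRNA 2 were split between a lower proximal site alone (25), a higher distal site alone (26) and both (23). The rest had both sites higher (3), both lower (5) or neither called (1). The 48 that moved toward the proximal site had a higher proximal site alone in 19, a lower distal site alone in 15 and both in 6. No single pattern held for all calls. Ratio and site tests share their reads, so these counts describe the calls and are not separate evidence.

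**Figure D4:**
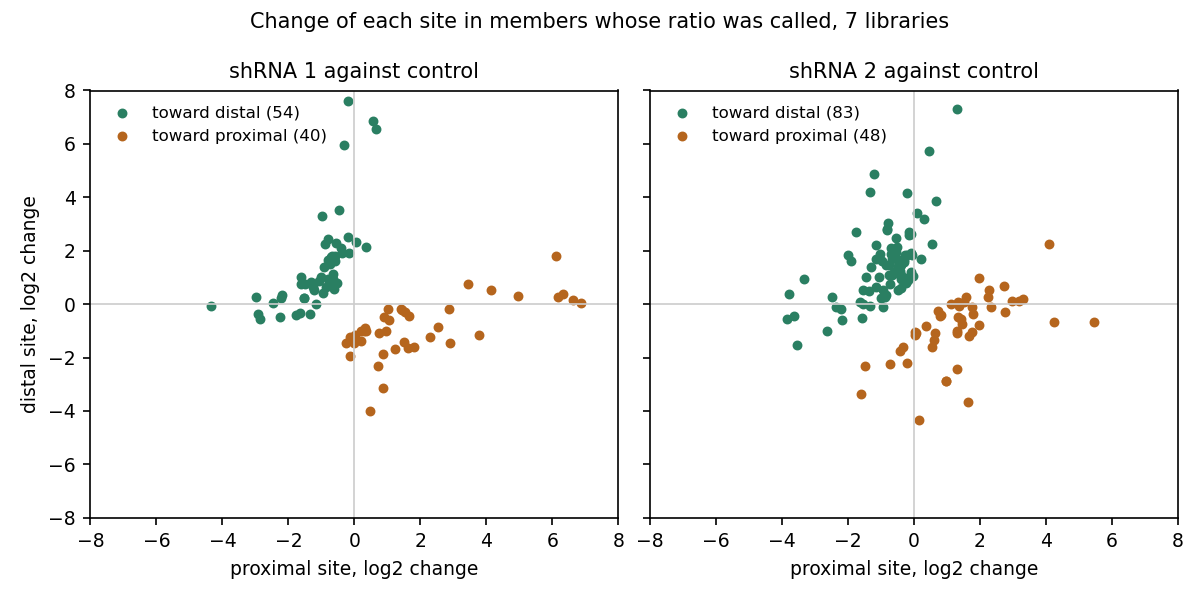
Log2 change of the proximal site (x axis) and of the distal site (y axis), each tested alone, for members whose ratio was called in 7 libraries, 1 point per member. With shRNA 1 (left) 54 members moved toward the distal and 40 toward the proximal site, with shRNA 2 (right) 83 and 48; points spread along both axes, so either site could carry the change.

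Members in which the site with more reads changed in every library were few. From control to shRNA 1, 7 went from proximal to distal (0.344% of members, against 0.336% of all runs) and 5 from distal to proximal (0.246% against 0.214%). From control to shRNA 2 the counts were 17 (0.835% against 0.671%) and 8 (0.393% against 0.793%). From shRNA 1 to shRNA 2 they were 13 (0.639% against 0.473%) and 12 (0.59% against 0.61%).

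Calls in 7 libraries were counted by spacing. With shRNA 2, members over 1000 and up to 1500 nt apart had 32 calls toward the distal and 12 toward the proximal site, and those over 1500 nt apart 22 and 5. At 500 nt or less the counts were 15 and 14, and at over 500 and up to 1000 nt 14 and 17. With shRNA 1 they were 18 and 12, 18 and 9, 6 and 7, and 12 and 12 in the same order of classes. In 10 libraries the few calls with shRNA 1 were 2 and 4 at over 1000 and up to 1500 nt, 3 and 2 at over 1500 nt, 2 and 0 at 500 nt or less, and 1 and 0 between, so the order of the directions at over 1000 and up to 1500 nt was not that of the 7 libraries. Over all runs the shares toward the distal and the proximal site in 7 libraries were 2.14% and 1.98% with shRNA 1 and 3.45% and 4.0% with shRNA 2. Differences between classes were not tested. Median log2 changes with shRNA 2 ran from -0.13 at 500 nt or less through -0.02 and 0.07 to 0.21 at over 1500 nt, and with shRNA 1 from -0.06 through 0.03 and 0.13 to 0.25. The median number of reads was 73.4, 70.2, 73.7 and 52.4 in the 4 classes, so depth fell only in the widest.

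**Figure D5:**
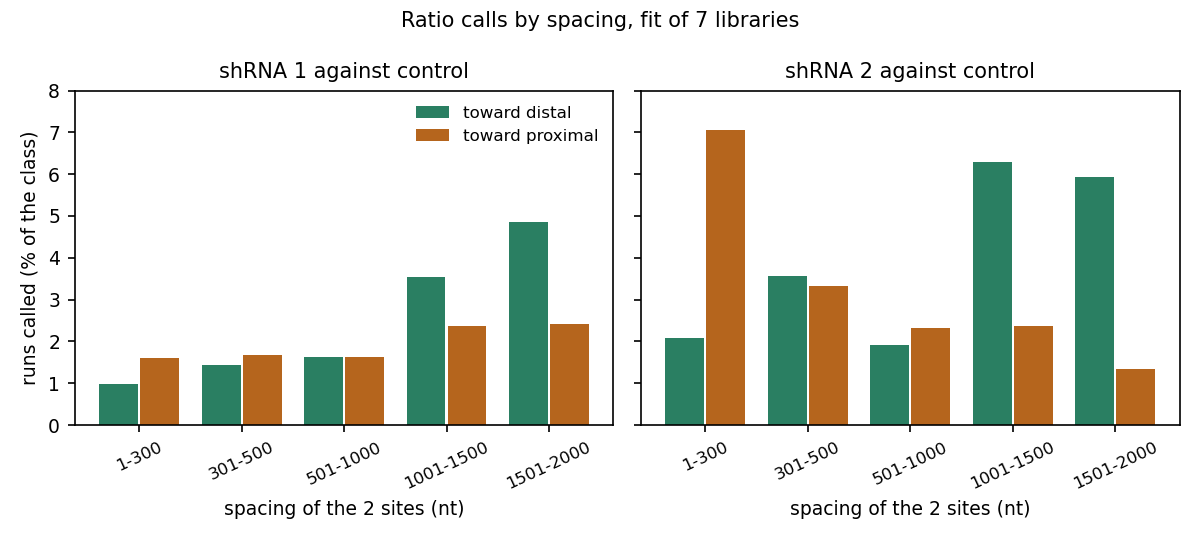
Share of 2-site runs called in 7 libraries, in percent of each spacing class (nt), for shRNA 1 (left) and shRNA 2 (right) against control, with calls toward the distal (green) and the proximal site (brown). The class up to 300 nt holds no members and had 34 distal and 115 proximal calls with shRNA 2; the classes over 1000 nt had 36 distal and 21 proximal calls with shRNA 1 and 54 and 17 with shRNA 2, with no test of a difference between classes.

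Other features of the members were set beside the calls. Where the distal site held under 20% of reads on average (400 members), 44 moved toward the distal and 4 toward the proximal site with shRNA 2 in 7 libraries, and 26 and 7 with shRNA 1. Where it held over 80% (531 members), the counts were 12 and 20, and 8 and 16. This share is a mean over the libraries compared and is not independent of the change. Members with 200 or more reads per library (513) had 11.3% and 13.6% called with shRNA 1 and shRNA 2, against 1.63% and 2.21% of the 861 with under 50 reads. The median SD of the log2 ratio within a group was 0.38 in the first and 0.73 in the second (7 libraries), so changes in members with few reads were less detectable at this depth. On the plus strand 45 of 1063 moved toward the distal and 23 toward the proximal site with shRNA 2, and on the minus strand 38 and 25 of 972. A site of the other strand lay within 300 nt of either site in 140 members, of which 11 moved toward the distal and 3 toward the proximal site with shRNA 2. Over all runs in 7 libraries, 3.45% moved toward the distal and 4.0% toward the proximal site with shRNA 2, and 2.14% and 1.98% with shRNA 1. Shares over all runs of the same class were not counted, and differences between classes were not tested.

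The 5 members with the most reads were chosen by depth alone. At chr17:74730211-74730921 (minus strand, 710 nt), proximal reads were 406, 530 and 395 in controls, 107, 106, 145 and 142 with shRNA 1 and 353, 583 and 508 with shRNA 2, beside 6529 to 15657 distal reads. The 4 shRNA 1 libraries were all lower than the other 6, with control and shRNA 2 overlapping. The proximal site alone changed by -1.74 on the log2 scale with shRNA 1 (edgeR adjusted p = 4.99e-05). The ratio changed by 1.31 ± 0.41 with shRNA 1 in 10 libraries (adjusted p = 0.208), which missed the threshold, and by 1.37 ± 0.27 in 7 (adjusted p = 0.00222). With shRNA 2 the changes were 0.01 ± 0.44 and 0.18 ± 0.24 (adjusted p = 0.997 and 0.718).

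At chr22:35820494-35821423 (plus strand, 929 nt) the proximal site was the major one, with 3482 to 12031 reads beside 103 to 249 distal reads. Its ratio changed by 0.65 ± 0.41 with shRNA 1 (edgeR adjusted p = 0.586) and by 0.47 ± 0.44 with shRNA 2 (adjusted p = 0.81), although all knockdown libraries, from -5.51 to -4.79, lay above the controls, from -6.10 to -5.74. In the other 3, the proximal site was a trace beside the distal one. Proximal reads were 0 to 16 beside 13788 to 51857 distal reads at chr6:34213636-34214007, 0 to 17 beside 4536 to 26579 at chr12:6646889-6647536, and 7 to 50 beside 4464 to 13400 at chr3:58410887-58411746. The proximal site met the read minimum only through the controls at chr6:34213636-34214007 and only through shRNA 2 at chr12:6646889-6647536, so their values are a description. Log2 changes of the 3 ratios ran from -0.41 to 0.94 in 10 libraries. The ratio at chr3:58410887-58411746 passed the test in neither library set.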

How the data were processed

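The values used were raw counts of reads per poly(A) site in 10 3'READS libraries and raw counts of reads per gene in 12 RNA-seq libraries, as the authors deposited them. The submitters' processing notes name build hg19, the trimmer cutadapt 2.6, the aligner STAR 2.7.3a and DESeq2, without roles. The rule by which reads became sites is not stated there, nor is the origin of positions (0 or 1). Reads without molecular identifiers are not independent molecules, so intervals and floors cover counting error only. Members and classes were chosen with earlier results of these data known.

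For the ratio, the proximal and the distal count of each library stood as separate columns in edgeR 4.0.16 (R 4.3.3), with terms for library, site and site by group. All 6556 runs of 2 or more sites entered, longer runs by their first and last site. The robust quasi-likelihood F test (two-sided) had 7 residual degrees of freedom with 10 libraries and 4 with 7, and p-values were adjusted by Benjamini-Hochberg over all runs. Single sites were tested with TMM scaling over 34780 sites. Code was tested on simulated counts. RNA-seq CPM used total counts and an exact permutation test.

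Named members were those called with each shRNA, moving the same way without overlap of libraries, with a mean of at least 50 reads (10 per direction by the smaller change), the same for shRNA 2 against shRNA 1 (5 per direction), and the 5 with the most reads. As the first part gave none in 10 libraries, the rule for both parts was also applied to 7, and all 14 members called with shRNA 1 were named; both were chosen after seeing the data. Members on chromosome 8 were not named. Alternatives were DESeq2 1.42.0, edgeR's diffSpliceDGE, other read minimums, a joining distance of 5000 nt, a replicate block and leaving out libraries. Gene names and sequences were not used here.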

Additional observations from a re-analysis of the deposited data

Results flagged for a closer look

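Among the 42 members named, 2 had 1 shRNA 1 library far from the other 3, by Dixon's ratio of the gap to the whole range of the group; chance alone does this in about 1 in 20 groups. At chr1:108113449-108113784 the log2 ratio of distal to proximal reads was 5.03 in shRNA 1 replicate 2, against 2.56 to 2.88 in the other 3 libraries (gap over range 0.87). At chr7:36892513-36893967 it was -9.26 in shRNA 1 replicate 1, which had 0 distal reads there, against -3.32 to -2.93 in the others (gap over range 0.938). Both libraries are among the 3 that stood apart, and the cause was not tested.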

How the results depend on the processing

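The number of members with a called ratio moved with nearly every setting, the cause of which was not tested. Apart from the edgeR fits of 10 and of 7 libraries, calls over all runs were not counted. For shRNA 1, shRNA 2 and shRNA 2 against shRNA 1 in turn, counts went from 14, 0 and 17 to 94, 131 and 118 without the 3 libraries that stood apart, 27, 7 and 15 with a site term for them, 34, 10 and 49 with DESeq2, 22, 37 and 42 with DESeq2 without those libraries, and 45, 13 and 69 with diffSpliceDGE. They were 27, 15 and 36 with a site mean of at least 20 reads, 0, 0 and 4 with at least 1 read, 28, 5 and 23 with a joining distance of 5000 nt, and 6, 2 and 5 with both sites at a mean of at least 5 reads in each group. Leaving out 1 library gave 1 to 16, 0 to 5 and 0 to 18. The data did not show that replicate numbers pair the libraries (correlations of same-numbered deviations from -0.506 to 0.126). The 3 libraries that stood apart enter these correlations, so they cannot settle whether the numbers pair. With a replicate block the counts were 1, 0 and 2. Of the 4070 single sites of members, the called 12.6%, 6.39% and 16.7% became 27.1%, 28.1% and 31.4% without the 3 libraries and 7.03%, 2.58% and 10.7% with the replicate block. The share for shRNA 2 was 10.5% with DESeq2. Leaving out 1 library gave 6.58% to 14.5%, 1.89% to 10.6% and 7.4% to 19.0%. Of 23 called results on named members, 23 stayed called with DESeq2, with diffSpliceDGE and without the 3 libraries, 18 with DESeq2 without those libraries, and 3 with the block. Leaving out 1 library kept from 7 of the 23 (without control replicate 2 or shRNA 2 replicate 1) to 20 (without shRNA 1 replicate 1). The median log2 ratio of control, shRNA 1 and shRNA 2 was 0.006, 0.157 and 0.137 with the minimum of 20 reads and -0.053, 0.045 and 0.039 with 5000 nt; leaving out 1 library gave 0.16 to 0.22, 0.26 to 0.32 and 0.22 to 0.25.

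The direction of a change turned in 4 of the 5 most deeply read members, in comparisons that did not pass the test in 10 libraries. Leaving out 1 library moved the shRNA 2 change over -0.062 to 1.063 at chr6:34213636-34214007, -1.035 to 0.136 at chr12:6646889-6647536, -0.136 to 0.184 at chr17:74730211-74730921 and -0.93 to 0.115 at chr3:58410887-58411746. In 7 libraries the shRNA 1 change was -0.353 at the second (-0.31 with DESeq2) and 0.173 at the fourth (0.119 with DESeq2), the shRNA 2 change was 0.015 at the fourth, and DESeq2 gave -0.008 and -0.02 at the first for shRNA 1 and shRNA 2. With diffSpliceDGE the shRNA 2 change was -0.019 at the third. Of 126 changes of the 42 named members, 10 had the other sign in 7 libraries and none of these passed the test in either set; they include shRNA 2 against shRNA 1 at chr20:61518569-61520057 (-0.29 and 0.21) and chr20:60962966-60963575 (-0.17 and 0.39). The median of that comparison over members was -0.027, but 0.019 without shRNA 1 replicate 2 and 0.008 without shRNA 2 replicate 1. FIP1L1 with TMM was higher with shRNA 2 than with shRNA 1 by 0.371 (exact permutation p = 0.0286), against 0.236 (p = 0.0857) on total counts; leaving out 1 library gave -1.311 to -1.183, -1.022 to -0.968 and 0.187 to 0.315, where the smallest possible p was 0.0571.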
